A study of Homo sapiens with 20 samples.

Results

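H3K27ac peaks on human chromosome 19 were studied in G401, a rhabdoid tumour cell line with the genotype SMARCB1(-/-). They were chosen by chromosome, as every called peak of the H3K27ac lists whose first column reads chr19. These were 29220 of the 458811 peaks in 4 lists, and they merged into 9312 of the 167933 regions of the genome. Because a peak enters a list only when the caller finds it enriched, the presence of acetylation at these places chose them and is no result. Chromatin was cut enzymatically before immunoprecipitation, and doxycycline induced either GFP, the control, or SMARCB1 in the same SMARCB1-lacking line. Of 20 samples, paired into 10 groups, the 2 GFP-induced and 2 SMARCB1-induced H3K27ac libraries were used. The H3K4me1, H3K4me3, SMARCA4 and input samples were not analysed here, so arm ratios are given for H3K27ac alone and no share overlapping H3K4me3 is given. Nothing in the labels says that the 2 libraries of a group came from separate cultures, so p-values measure only the spread between libraries.

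H3K27ac is an acetylation of histone H3 that marks active promoters and enhancers. SMARCB1 is a core subunit of the BAF and PBAF forms of the SWI/SNF chromatin remodelling complex, and its loss is the defining lesion of rhabdoid tumours. Chromosome 19 is the most gene-dense human chromosome and carries large clusters of KRAB zinc finger genes, many of which encode repressors of transposable elements. The bodies of those zinc finger genes are known for covering by the heterochromatin mark H3K9me3, while their promoters stay active in many cells. In the RefSeq table of GRCh38.p14, 1451 of 20052 protein-coding genes (7.24%) and 246 of 510 genes with a numbered ZNF symbol (48.2%) were on chromosome 19. The peaks are on hg19, an earlier build, so no gene name or sequence was placed on a peak.

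Chromosome 19 made up a smaller share of the acetylated sites in the SMARCB1-induced libraries than in the GFP-induced ones. It held 7.68% and 7.13% of all peaks in GFP replicates 1 and 2, and 5.70% and 5.69% in SMARCB1 replicates 1 and 2. The groups did not overlap, and the GFP mean share of 7.40 ± 0.389% stood against a SMARCB1 mean of 5.69 ± 0.00961% (SD, n = 2), a difference of -1.71 percentage points (exact permutation test over libraries, two-sided, p = 0.333). With 2 libraries against 2, 0.333 is the smallest p this test can give, so no difference below could reach significance and each is read by whether the groups separate. The share was lower with SMARCB1 under all 9 alternatives computed for it.

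In absolute number the chromosome had more peaks with SMARCB1, but the excess was smaller in proportion than over the genome. The 4 lists held 7546 and 5672 chromosome 19 peaks with GFP, and 8297 and 7705 with SMARCB1. All SMARCB1 values were thus above all GFP values, by 159 peaks at the nearest. GFP libraries averaged 6609 ± 1325.12 peaks and SMARCB1 libraries 8001 ± 418.607 (SD, n = 2), 1.21 times as many (exact permutation test, two-sided, p = 0.333), while the whole lists were 1.58 times as long. This difference depended on list length: with the strongest 79555 peaks of each library the difference became -1205 peaks, and it was 278 with overlapping groups (exact permutation test, two-sided, p = 1) at a -log10 q of at least 5. It was 2329 without GFP replicate 1 and 455 without GFP replicate 2. The caller's genome-wide background at a summit, which grows with depth, was 1.82 and 3.74 fragments in the GFP libraries. In the SMARCB1 libraries it was 4.09 and 3.89, where the 4.09 carries a scale of 0.855 and was 4.78 fragments before scaling. The part of this background in the peak numbers was not tested.

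**Figure D1:**
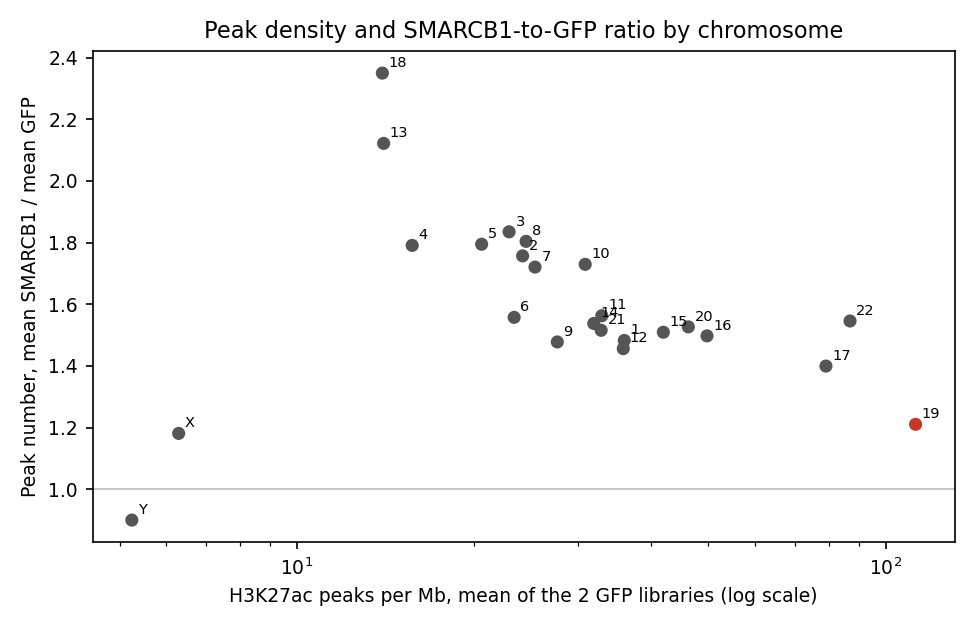
Each point is a chromosome, with the mean number of H3K27ac peaks per Mb in the 2 GFP libraries on the horizontal log axis and the ratio of mean peak number, SMARCB1 over GFP, on the vertical axis. Chromosome 19 (red) is at the far right, at a ratio of 1.21, lower than every other autosome.

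Among the 22 autosomes chromosome 19 had the lowest ratio of SMARCB1 to GFP peak number, 1.21, and the next was chromosome 17 at 1.40. At the other end chromosomes 13 and 18 had ratios of 2.12 and 2.35. Only the sex chromosomes, with few peaks, had lower ratios than chromosome 19. Chromosome 19 also had the highest or next to highest peak density in every list, with 128 and 96.5 peaks per Mb in the GFP libraries and 141 and 131 in the SMARCB1 libraries. Elsewhere in the genome the density was 31.5 and 25.6 peaks per Mb with GFP and 47.6 and 44.3 with SMARCB1. The chromosome was thus 4.08 and 3.76 times as dense as the remainder with GFP, and 2.96 and 2.96 times with SMARCB1. Divided by protein-coding genes the chromosome did not stand out with GFP: it held 5.20 and 3.91 peaks per gene, at rank 16 and 12 from the lowest of 24 chromosomes. With SMARCB1 it held 5.72 and 5.31 peaks per gene, at rank 4 in both lists.

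Strong peaks differed between groups in the same direction as whole lists. Among the strongest 20000 peaks of each library, chromosome 19 had 1538 and 1533 with GFP and 1286 and 1296 with SMARCB1. As shares these were 7.69% and 7.67% against 6.43% and 6.48%, so each GFP library was above each SMARCB1 library. Among the strongest 1000 peaks the shares were 6.7% and 6.9% with GFP and 6.4% and 4.8% with SMARCB1. Separation held at each of the 8 list lengths from 500 to 79555 peaks. The difference of the means was smallest at 2000 peaks, with 7.65% and 7.80% against 7.30% and 7.30%.

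**Figure D2:**
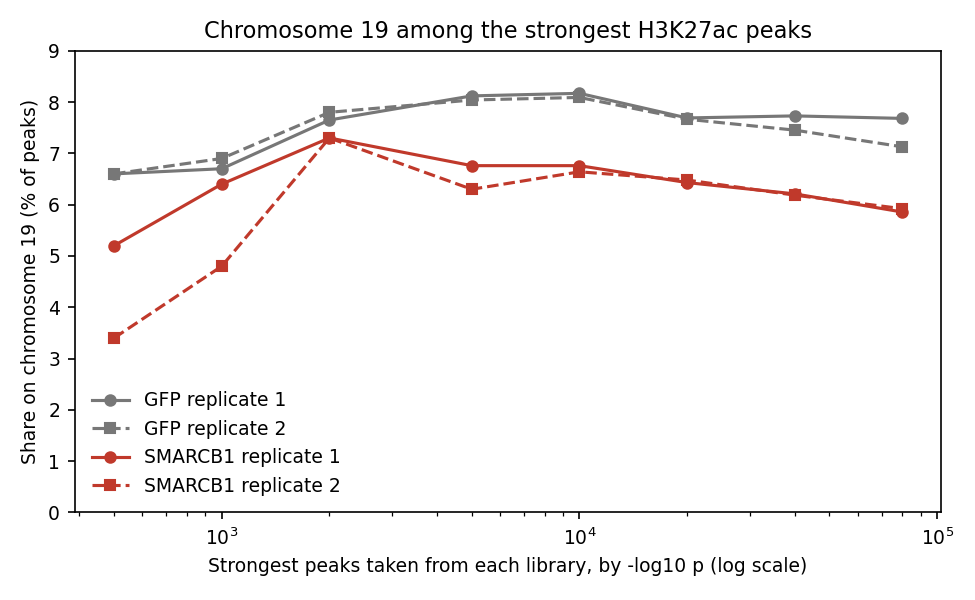
Share of peaks on chromosome 19 (vertical axis, percent) among the strongest peaks of each library by the caller's -log10 p, against the number of peaks taken (horizontal log axis). Both GFP libraries (grey) stay above both SMARCB1 libraries (red) at every length; at 10000 peaks the values are 8.17% and 8.09% against 6.76% and 6.64%.

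Covered length did not separate the groups. Peaks covered 6.25 and 5.18 Mb of chromosome 19 with GFP and 7.24 and 5.79 Mb with SMARCB1, or 10.6% and 8.81% against 12.3% and 9.85% of the span between its first and last peak. The mean difference of 0.804 Mb was smaller than the SD of the SMARCB1 libraries, 1.02 Mb (exact permutation test, two-sided, p = 0.667), and was -0.0993 Mb with lists of equal length. Without SMARCB1 replicate 1 it was 0.0810 Mb, without GFP replicate 2 it was 0.271 Mb, without GFP replicate 1 it was 1.34 Mb and without SMARCB1 replicate 2 it was 1.53 Mb. In the remainder of the genome 2.86% and 2.67% was covered with GFP and 3.98% and 3.29% with SMARCB1.

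Single peaks on chromosome 19 were close in median width and height to those elsewhere in the same list. In base pairs, the median width in the GFP lists was 378.5 and 409, and in the SMARCB1 lists 420 and 402. The median was 0.5 and 6 bp narrower than on the other chromosomes in the GFP lists, and 19 and 24 bp wider in the SMARCB1 lists. Median fold enrichment over the caller's background, a value of the authors' peak caller, was 4.60 and 4.01 with GFP and 3.72 and 3.83 with SMARCB1, beside 4.60, 3.95, 3.72 and 3.68 elsewhere. The median summit held between 13 and 23 fragments in the 4 lists. Peaks at the caller's genome-wide background made up 51.4%, 55.9%, 58.9% and 61.4% on chromosome 19, below the 55.0%, 58.5%, 66.4% and 67.2% found elsewhere in the same lists. More chromosome 19 peaks were therefore scored against a raised local background in every library; its part in the share of peaks was not tested.

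To compare strength over the same regions in each library, the 27997 regions with a peak in all 4 libraries were ranked by their highest fold enrichment within each library. The 2202 such regions of chromosome 19 had a median percentile of 51.7 and 51.2 in the GFP libraries and of 48.1 and 46.1 in the SMARCB1 libraries. The mean of these medians differed by -4.39 points and the groups were apart by 3.14 points (exact permutation test, two-sided, p = 0.333). Common regions of the other chromosomes stayed between 49.7 and 50.6 in the 4 libraries. Acetylated regions shared by every library thus stood lower in the SMARCB1 ranking on chromosome 19, by a few points of percentile. List length can still enter here, through which regions are common and how far each extends, and its part was not tested.

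Gained regions, with a peak in both SMARCB1 lists and in neither GFP list, were scarce on chromosome 19. There were 892 among its 9312 merged regions, or 9.58%, where the share over the whole genome was 17.5%. This was the lowest share of the 24 chromosomes. Lost regions, the opposite case, numbered 367, or 3.94% of merged regions, the same as the 3.94% of the whole genome. Of regions with a peak in both GFP lists, however, 12.6% were lost on chromosome 19 and 17.2% over the genome. Of those with a peak in both SMARCB1 lists, 23.9% were gained on chromosome 19 and 44.5% over the genome. Regions common to all libraries made up 23.6%, against 16.3% in the remainder of the genome, and regions seen in a single library made up 45.2% against 50.2%. Gained regions per lost region were 2.43 on chromosome 19 and 4.43 over the genome.

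The order of gained and lost regions turned with list length. Cutting each list to its 79555 strongest peaks left 281 gained and 593 lost regions on chromosome 19, or 4.22% and 8.91% of its regions, where the genome had 11.5% and 8.12%. At a -log10 q of at least 5 there were 366 gained (7.24%) and 291 lost (5.75%) regions, where the genome had 15.1% and 5.59%. When a library was left out, gained regions numbered 1479 without GFP replicate 1, 2151 without SMARCB1 replicate 1 and 2912 without SMARCB1 replicate 2, while lost regions numbered 900 without GFP replicate 1, 1891 without GFP replicate 2 and 728 without SMARCB1 replicate 1.

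On this dense chromosome changed regions lay close to acetylation that the other group already had. The median gained region was 989 bp from the nearest GFP peak, and 50.4% were within 1 kb, against 4772 bp and 25.9% on the other chromosomes. Lost regions lay at a median of 641 bp from a SMARCB1 peak, with 59.1% within 1 kb, against 1494 bp and 43.1%. Gained regions more than 50 kb from any GFP peak made up 0.897% on chromosome 19 and 16.3% elsewhere. Joining peaks within 1 kb first left 230 gained (6.72%) and 88 lost (2.57%) regions of 3423. Over the whole genome the shares were then 14.1% and 2.58%, so lost regions were at the genome's share of merged regions.

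The strongest gained regions were moderate in height. The first spanned 45094015 to 45095583 on the q arm (hg19), with a fold enrichment of 8.09 in SMARCB1 replicate 1 and 9.01 in replicate 2 from 47 and 43 fragments, and it was 50046 bp from any GFP peak. The second, 32862682 to 32864157, had a fold enrichment of 13.3 and 7.62, higher than the first in replicate 1 and lower in replicate 2, and a GFP peak lay 21 bp from it. This second region thus adjoined acetylation that was already called with GFP. The third, 43133627 to 43135137, had 7.44 and 7.02. The fourth, 6568356 to 6569514 on the p arm, had 8.25 and 6.96, with a GFP peak 1032 bp away. The fifth, 16933260 to 16933990, had 7.58 and 6.96 from 44 and 33 fragments. Each of the 5 lay inside a stitched region of both SMARCB1 tables.

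Of the strongest lost regions 3 were on the q arm and 2 on the p arm. The first, 43782522 to 43785299, had a fold enrichment of 10.6 in GFP replicate 1 and 7.42 in GFP replicate 2, from 29 and 38 fragments, and a SMARCB1 peak lay 1280 bp away. The second, 36359115 to 36360674, had 13.1 and 7.39, with a SMARCB1 peak 555 bp away. The third, 50817679 to 50819769, had 10.1 and 6.85, and was 15795 bp from the nearest SMARCB1 peak. The fourth, 11998558 to 11999657, had 13.7 and 6.71, at 36229 bp from a SMARCB1 peak. The fifth, 6110816 to 6111128, was only 313 bp wide and had 7.79 and 6.55. The second, the fourth and the fifth were outside every stitched region of both GFP tables.

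Regions that all libraries shared reached far higher values, and the strongest 5 were all on the q arm. The strongest, 47607650 to 47616446, had a fold enrichment of 39.0 and 23.2 with GFP and 23.5 and 21.3 with SMARCB1, from 103 to 139 fragments at the summit. The region 43829033 to 43833160 had 29.2, 20.1, 22.0 and 19.9 in the same order. It stood near the lost region at 43782522, so a strong shared site and a lost one were neighbours within the same megabase. The region 50143974 to 50145133, only 1160 bp wide, had 35.1, 20.3, 19.5 and 19.2 and was outside every stitched region in all 4 libraries. The others were 43503984 to 43509150, with 30.8, 20.5, 20.5 and 18.2, and 43437211 to 43444474, with 30.5, 17.9, 18.0 and 18.0. The megabase from 43 to 44 Mb therefore held 3 of the 5.

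The widest merged regions were all shared by every library. The first, 18524856 to 18561845 on the p arm, was 36990 bp wide, and a neighbour, 18469212 to 18501904, was 32693 bp wide. Between them in rank was 13119456 to 13152184 with 32729 bp. The 2 others were on the q arm, 43801372 to 43828834 with 27463 bp and 39138242 to 39162984 with 24743 bp.

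The arms were set apart by the widest stretch without any peak, 24271043 to 28263142, which holds the centromere and was 3.99 Mb long. The p arm had 4036 and 2901 peaks with GFP and 4377 and 4081 with SMARCB1. The q arm had 3510 and 2771 with GFP and 3920 and 3624 with SMARCB1. The ratio of p to q was 1.15 and 1.05 with GFP and 1.12 and 1.13 with SMARCB1, so the groups overlapped (difference 0.0230, exact permutation test, two-sided, p = 1), and without GFP replicate 2 the difference was -0.0285. Per Mb between the first and last peak of each arm the p arm was denser in all 4 lists, by 1.48 and 1.35 times with GFP and 1.44 and 1.45 times with SMARCB1. With the zinc finger windows left out the factors were 1.56, 1.43, 1.52 and 1.54, so the p arm was denser without the windows too.

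By covered bases the arm ratio separated the groups, which the ratio of peak numbers in the full lists did not. Among peaks with a -log10 q of at least 5 the ratio of peak numbers separated them too, with a difference of 0.0656 (exact permutation test, two-sided, p = 0.333). The ratio of covered bases was 1.06 and 0.966 with GFP and 1.18 and 1.14 with SMARCB1, a mean difference of 0.146 (exact permutation test, two-sided, p = 0.333). The p arm was covered to 13.4% and 10.6% with GFP and 16.3% and 12.9% with SMARCB1, and the q arm to 9.83% and 8.55% with GFP and 10.8% and 8.77% with SMARCB1. The median p-arm peak was 370.5 and 400 bp wide in the GFP lists and 422 and 402 bp in the SMARCB1 lists, again without overlap. Gained regions were 475 on the p arm (9.74% of its regions) and 417 on the q arm (9.40%). Lost regions were 147 on the p arm (3.01%) and 220 on the q arm (4.96%), so gained regions per lost region were 3.23 and 1.90.

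The 4 zinc finger windows were sparse in acetylation beside the rest of chromosome 19. They span 19.8 to 24.5, 36.5 to 38.5, 52.0 to 54.0 and 56.0 to 59.1 Mb, 11.8 Mb in all, and their ends are set in round numbers, not at gene borders. Together they held 434 and 361 peaks with GFP and 505 and 454 with SMARCB1, 5.75% to 6.36% of the chromosome's peaks. Their density was 36.8 and 30.6 peaks per Mb with GFP and 42.8 and 38.5 with SMARCB1. Elsewhere on the chromosome, outside the centromeric gap, it was 164 and 123 with GFP and 180 and 168 with SMARCB1. Over the other chromosomes, with their peak-free gaps included, it was 31.5 and 25.6 with GFP and 47.6 and 44.3 with SMARCB1. The windows together were thus not sparse beside the genome in the GFP lists, and were somewhat below it in the SMARCB1 lists. The ratio of windows to the other parts was 0.224 and 0.249 with GFP and 0.238 and 0.229 with SMARCB1, with overlapping groups (difference -0.00288, exact permutation test, two-sided, p = 1), and its sign turned without GFP replicate 2 (0.00985), without SMARCB1 replicate 2 (0.00114) and with lists of equal length (0.00948). By covered bases the ratio separated the groups, at 0.219 and 0.226 with GFP and 0.209 and 0.208 with SMARCB1 (exact permutation test, two-sided, p = 0.333). The level of the peak density ratio depended on the borders. With each window shortened by 0.5 Mb at both ends its mean was 0.142 with GFP and 0.139 with SMARCB1.

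**Figure D3:**
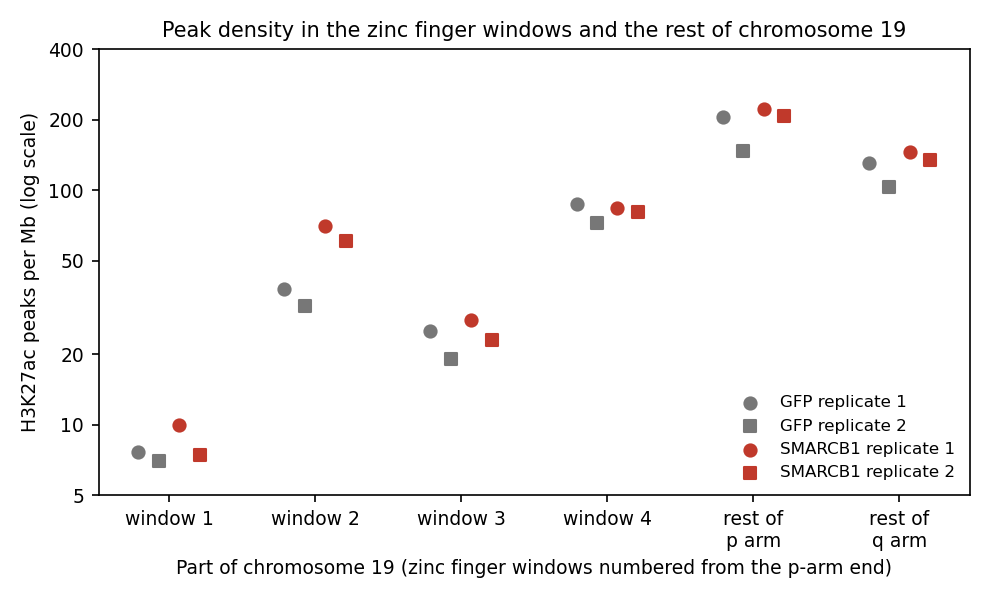
H3K27ac peaks per Mb (vertical log axis) in the 4 zinc finger windows, numbered from the p-arm end, and in the other parts of each arm; a point is a library, grey for GFP and red for SMARCB1. The first window lies between 7.02 and 10 in all libraries, and the second is the only window where both SMARCB1 libraries (70.5 and 61) are above both GFP libraries (38 and 32).

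The windows were unlike each other. The first, next to the centromere, had 36 and 33 peaks with GFP and 47 and 35 with SMARCB1, which is 7.66, 7.02, 10 and 7.45 per Mb. No peak of any library lay from 20.3 to 20.8 or from 22.3 to 22.8 Mb. The third had 50 and 38 peaks with GFP and 56 and 46 with SMARCB1. Both windows overlapped between groups. The fourth, at the end of the q arm, was far denser, with 272 and 226 peaks against 261 and 251, and its density of 72.9 to 87.7 per Mb was below that of the other parts of the q arm in every library. Its 0.1 Mb stretch from 59.0 to 59.1 Mb alone held 41 and 35 peaks with GFP and 32 and 37 with SMARCB1.

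Only the second window separated the groups in peak number, and it was singled out for this after the data were seen. Its ratio of mean peak number, SMARCB1 over GFP, was 1.88. Such a gain was common in the genome. Of all 1 Mb bins with at least 40 peaks over the libraries, 78.7% were higher in both SMARCB1 libraries than in both GFP libraries. The median bin outside chromosome 19 had a ratio of 1.73. The second window held 76 and 64 peaks with GFP and 141 and 122 with SMARCB1, with means of 70 ± 8.49 and 131.5 ± 13.4 (SD, n = 2; exact permutation test, two-sided, p = 0.333). With lists of equal length the difference was 12 peaks, and at a -log10 q of at least 5 it was 21, in both cases with the groups apart. The added peaks were at the ends of the window and not in its middle. From 36.5 to 37.0 Mb there were 44 and 35 peaks with GFP and 80 and 81 with SMARCB1, and 19 of the 24 gained regions of the window. Those 24 were 15.1% of its 159 merged regions, below the 17.5% of the whole genome. From 38.0 to 38.5 Mb there were 12 and 8 against 37 and 21, with the other 5 gained regions. The 1 Mb between held 20 and 21 peaks with GFP and 24 and 20 with SMARCB1, and none of its regions was gained while 3 were lost.

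Peaks that were present in the windows were higher than those elsewhere on the chromosome, a difference seen in all 4 lists. Median fold enrichment was 5.19 and 4.86 in the windows with GFP and 3.89 and 4.09 with SMARCB1, against 4.60, 3.99, 3.72 and 3.81 in the other parts. Among regions common to all libraries, the 184 of the windows had a median percentile of 63.2 and 61.2 with GFP and 57.4 and 58.2 with SMARCB1, against 50.4, 49.9, 46.6 and 46.1 for the 2018 others of the chromosome. The mean difference was -4.43 points in the windows and -3.82 in the other parts, and in both the groups were apart (exact permutation test, two-sided, p = 0.333 each). Common regions made up 31.9% of the 577 merged regions in the windows and 23.1% of the 8735 in the other parts. Gained regions were 41 (7.11%) and lost regions 17 (2.95%) in the windows, against 851 (9.74%) and 350 (4.01%).

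The 4 windows held 20, 35, 23 and 106 regions common to all libraries. The one with the highest lowest fold over the libraries is given here for each window. In the first it was 21688381 to 21689354, 974 bp wide, with a fold enrichment of 19.1 and 13.1 with GFP and 12.3 and 12.485 with SMARCB1. In the second it was 36629993 to 36632142, with 19.5, 16.3, 17.8 and 15.8. In the third it was 52693249 to 52696272, with 26.2, 15.4, 14.5 and 13.7. In the fourth it was 56166344 to 56174480, 8137 bp wide, with 29.8, 20.7, 17.0 and 15.8. The first 2 of these were outside every stitched region in all libraries, the third in GFP replicate 1 alone, and the fourth in none.

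The authors' stitched tables join H3K27ac peaks into regions distal to transcription start sites, per the file headers. A peak was counted as inside when its start fell between the ends of a stitched region, and as outside otherwise. A peak set aside near a start site is thus counted as inside if a stitched region spans it. The exact rule of the distal step is not given in the sources used here, so outside peaks are not read as peaks near start sites. On chromosome 19 they numbered 1757 and 1517 with GFP and 1697 and 1691 with SMARCB1, so the groups overlapped. Peaks inside stitched regions numbered 5789 and 4155 with GFP and 6600 and 6014 with SMARCB1, 1.27 times as many on average (exact permutation test, two-sided, p = 0.333). In the remainder of the genome the ratio was 1.76 for peaks inside and 1.06 for those outside. The added peaks were thus mainly inside stitched regions both on chromosome 19 and elsewhere, and the difference between these 2 ratios was not tested. At a -log10 q of at least 5 the peaks outside differed by -62, with equal lists by -330 and without GFP replicate 2 by -63, so the sign of their mean difference of 57 was not stable.

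**Figure D4:**
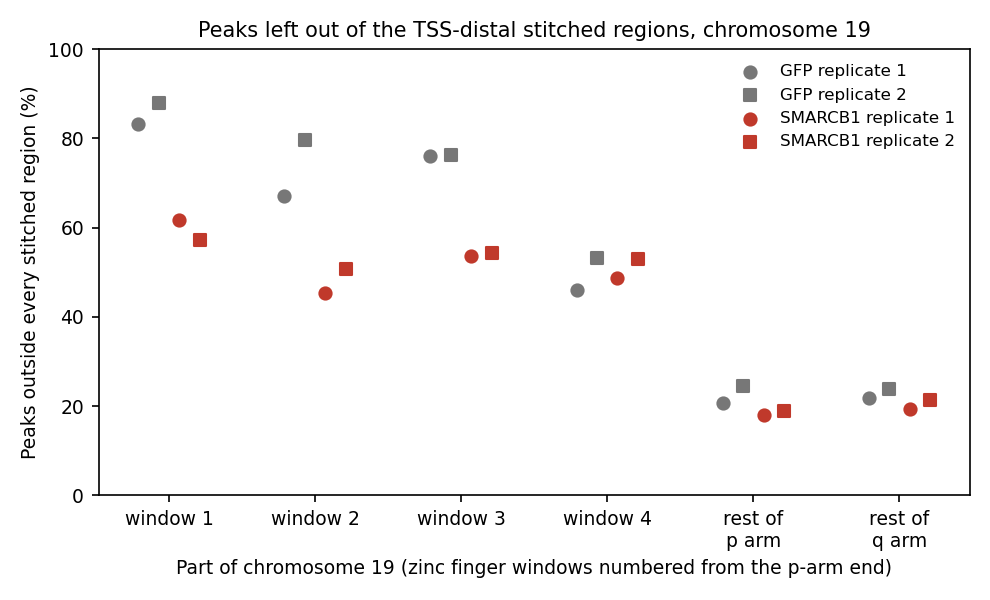
Share of peaks outside every stitched region (vertical axis, percent) in the zinc finger windows and the other parts of chromosome 19. Being outside is not the same as lying near a transcription start site. A point is a library, grey for GFP and red for SMARCB1. In the first 3 windows GFP libraries lie between 67.1% and 87.9% and SMARCB1 libraries between 45.4% and 61.7%, while the other parts lie between 17.9% and 24.5%.

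Peaks outside stitched regions made up 23.3% and 26.7% of the chromosome's peaks with GFP and 20.5% and 21.9% with SMARCB1, beside 20.02% and 22.4%, and 13.1% and 14.6%, elsewhere. Chromosome 19 had rank 4 of 24 chromosomes in this share in both GFP lists and rank 3 in both SMARCB1 lists. Rank 1 was chromosome Y with 100% outside in every list, so this share is not a measure of nearness to start sites. In the zinc finger windows the share was 56.2% and 63.4% with GFP and 49.5% and 52.9% with SMARCB1, above the 18.6% to 24.3% of the other parts in every library. In the first window it was 83.3% and 87.9% with GFP and 61.7% and 57.1% with SMARCB1. The second had 67.1% and 79.7% against 45.4% and 50.8%, and the third had 76.0% and 76.3% against 53.6% and 54.3%. In these 3 windows the groups were apart by at least 16.3 percentage points (exact permutation test, two-sided, p = 0.333 each). The lower shares went with more peaks inside stitched regions. In the second window peaks inside numbered 25 and 13 with GFP and 77 and 60 with SMARCB1, while those outside numbered 51 and 51 against 64 and 62. In the first, peaks inside numbered 6 and 4 against 18 and 15, and those outside 30 and 29 against 29 and 20. In the third, peaks inside numbered 12 and 9 against 26 and 21, and those outside 38 and 29 against 30 and 25. The fourth had 46.0% and 53.1% against 48.7% and 53.0%, with no separation. These shares rest on 33 to 141 peaks per library in the first 3 windows, and the part of unequal list length in them was not tested.

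In bins of 1 Mb the lower weight of chromosome 19 was spread along its length. Of its 60 bins, 53 had at least 40 peaks over the 4 libraries. As a share of each list, 41 of the 53 were lower in both SMARCB1 libraries than in both GFP libraries, where 32.8% of all such bins of the genome were. Only 4 were higher, where 45.5% of the genome's bins were. Of 9 bins with their midpoint in a zinc finger window, 8 were lower and none was higher. The median bin of chromosome 19 had 1.18 times as many peaks with SMARCB1, and the median bin elsewhere 1.73 times.

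**Figure D5:**
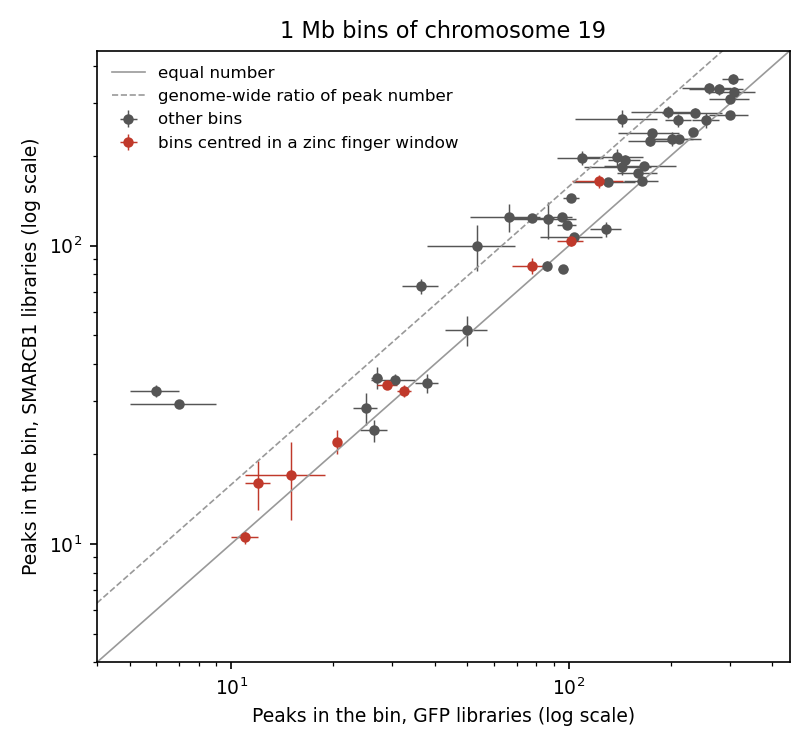
Number of H3K27ac peaks in each 1 Mb bin of chromosome 19, mean of the GFP libraries on the horizontal and mean of the SMARCB1 libraries on the vertical log axis; bars span the 2 libraries of a group, and red marks bins with their midpoint in a zinc finger window. Most bins lie between the solid line of equal number and the dashed line of the genome-wide ratio, 1.58, and 2 bins of 5 to 9 peaks with GFP stand far above both.

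The 4 bins with a higher share began at 16, 29, 32 and 34 Mb. The bin from 32 to 33 Mb had 5 and 7 peaks with GFP and 31 and 34 with SMARCB1, and it holds the second gained region. The bin from 29 to 30 Mb had 9 and 5 against 29 and 30. The bin from 34 to 35 Mb had 41 and 32 against 77 and 69, and the bin from 16 to 17 Mb had 126 and 92 against 207 and 186. In peak number itself 24 of the 53 bins were higher in both SMARCB1 libraries than in both GFP libraries, where 78.7% of the genome's bins were. A single bin was lower in both, where 5.18% of the genome's bins were; it ran from 28 to 29 Mb at the q-arm side of the gap, with 99 and 93 peaks with GFP and 82 and 85 with SMARCB1. It adjoins the bin from 29 to 30 Mb, where SMARCB1 libraries had more peaks. Among the densest bins, that from 1 to 2 Mb had 355 and 260 peaks with GFP and 339 and 318 with SMARCB1, with overlap. The bin from 47 to 48 Mb had 328 and 284 against 377 and 348, higher in number but lower as a share of the lists.

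Super-enhancer marks, which the authors gave to the top of each stitched table, numbered 49 and 24 on chromosome 19 with GFP and 67 and 65 with SMARCB1. The means were 36.5 ± 17.7 and 66.0 ± 1.41 (SD, n = 2; exact permutation test, two-sided, p = 0.333). Without GFP replicate 2 the difference of 29.5 marks became 17. As a share of all marks of a table these were 5.38% and 3.70% against 3.34% and 4.27%, with overlapping groups and a mean difference of -0.732 points. Only 1.49% and 1.31% of the stitched regions of chromosome 19 were marked with GFP and 1.96% and 2.37% with SMARCB1, below the 3.63%, 3.56%, 5.93% and 5.28% elsewhere. Stitched regions made of a single peak were 81.5% to 91.1% of those on chromosome 19 and 68.3% to 75.01% elsewhere. Merged over tables, 104 places carried a mark, of which 6 had it in all 4 tables. Another 14 (13.5%) had it in both SMARCB1 tables alone, where 26.3% of the 2411 marked places of the genome did, and 2 (1.92%) in both GFP tables alone, where 3.48% did. The SMARCB1 tables held more marks in all, 2003 and 1521 against 910 and 649. The 2 GFP-only places were 8036017 to 8146431 and 28699629 to 28751425, the latter within the bin with fewer peaks in both SMARCB1 libraries. In the zinc finger windows the marks numbered 2 and 0 with GFP and 3 and 0 with SMARCB1.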

How the data were processed

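The authors' MACS2 peak calls, 1 filtered list per library on hg19, were used, per the labels and file names. The caller's version, control and filter rule are not given in the sources used here. BWA 0.7.12-r1039, SAMtools and bedtools appear in the submitters' processing notes. The deposited fold enrichment is a ratio over the caller's background, and -log10 p and -log10 q are the authors' deposited values. The stitched tables are from ROSE, per the file headers. Their deposited count of joined peaks and super-enhancer marks were used as given, and 8 columns of read signal were not used, 4 of which matched no sample by name. Tables were given to libraries by the names in their headers. Region ends coincided with peaks of the matching list for 100% of regions in each table.

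A peak was placed by its summit and a merged region by its midpoint. Overlap was counted from 1 bp. The fragment count and background of each peak were solved from its fold and -log10 p, within 0.001, for 100% of peaks. In SMARCB1 replicate 1 counts carried a scale of 0.855. Intervals on read totals could not be given, since the lists hold no totals. Named regions were the 5 gained and 5 lost ones with the highest lower fold of their 2 libraries, the 5 common ones with the highest lowest fold, the 5 widest, and the strongest common one in each window. Stitched membership, ranks, 1 Mb bins, distances and the separate look at the second zinc finger window, picked as the only one of 4 whose peak number separated the groups, were chosen after seeing the data. The members and lists were chosen with earlier results of these data known. The overlap and fragment steps were tested on simulated data. Tables were handled with pandas 2.3.3 and numpy 2.4.6 in Python 3.11.15. Poisson tails came from scipy 1.17.1, and plots from matplotlib 3.10.9.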

Additional observations from a re-analysis of the deposited data

How the results depend on the processing

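Of 76 recomputed values, 13 counts of regions moved by over 1.5 times and 10 differences changed sign. The other 53 kept their direction or, for counts of regions, stayed within 1.5 times. Of these, 33 were within 1.5 times of the reported value and 20 were not. The 53 and the 33 include the values with the replicate number as a block, which equal the reported ones by construction. With lists of equal length, the differences became -1205 peaks, -0.0993 Mb covered and 0.00948 in the ratio of zinc finger windows to the other parts. Peaks outside stitched regions, a result added after the data were seen, then differed by -330, by -62 under the -log10 q minimum of 5, and by -63 to 177 when a library was left out, with -63 without GFP replicate 2. As a share of all marks, super-enhancer marks differed by -0.732 points. Gained regions numbered 366 under that minimum, 281 with equal lists, 1414 at a reciprocal overlap of 50% and 230 with peaks within 1 kb joined. Lost regions numbered 593, 859 and 88 under the last 3 of these. Leaving out 1 library gave 1086 to 2912 gained and 433 to 1891 lost regions, partly by construction, since fewer libraries must then agree. It gave -0.0285 to 0.0744 for the arm ratio, with the sign changed without GFP replicate 2, and -0.0156 to 0.00985 for the window ratio, with 0.00114 without SMARCB1 replicate 2. The causes of the other changes were not tested.

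With the replicate number as a block, the mean differences stay by construction at 1392 peaks, -1.71 points, 0.804 Mb, 0.0230, -0.00288 and 29.5 marks. The pairs differed by 751 and 2033 peaks and by -1.98 and -1.44 points of share. An exact sign-flip test over 2 pairs cannot give a p below 0.5, and no label ties a number to a shared batch. The lists hold no read totals, so depth limits every count of peaks to an unknown degree.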
